A study of Mus musculus with 17 samples.

Results

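Noncoding RNA of the right ventricle (RV) was compared with that of the left ventricle (LV) in mouse hearts at postnatal day 7 (P7). The comparison took in the 2 libraries titled RVP7 and the 3 titled LVP7, 5 of the 17 libraries of the series, with every row of their tables. All groups were ventricle tissue of male C57Bl/6 mice without treatment, and the other 12 libraries held LV and RV at P0 and P3, 3 per group. Total RNA was extracted and sequenced as strand-specific paired-end libraries. The labels call the libraries biological replicates. They do not say whether a library came from 1 heart or from pooled hearts, or whether an LV and an RV library came from the same animals. With only 2 RV libraries, the spread within RV rests on a single difference.

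Long noncoding RNAs are transcripts that are not translated into protein, and many act near the site where they are made, or host small RNAs in their introns. Before birth the ductus arteriosus lets the RV share the work of the systemic circulation. Once the duct closes, the LV pumps against the high systemic pressure and the RV against the low pressure of the lungs, and the LV wall becomes thicker. The P7 samples come after that change, at an age by which the labels place most heart muscle cells at the end of their differentiation.

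Each library's table held the same 23940 rows, each with an ID, a value and mostly a position. The value was taken to be FPKM, a count of fragments scaled to the length of the row and to the depth of the library. The depth implied by the steps between low values was 16.6 to 18.7 M fragments in the 5 P7 libraries. Mitochondrial rows took 68.6% to 73.8% of the summed value. RV replicate 2 had 40.8% of rows listed at 0, where the other 4 had 47.6% to 48.7%, and it lay at 24.2 on the first principal component, where they lay at 36.1 to 44.7. The part of these properties in the results below was not tested. Positions are those of the files, which are taken to be on the mouse assembly mm9. Most rows carry no gene name and are given by position, and the genes around them were not analysed here. In bulk tissue, fewer cells of a type and less RNA per cell cannot be told apart.

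Few differences between the ventricles were called at P7. Of 11079 rows with at least 0.1 FPKM in at least 2 of the 17 libraries, limma called 1 (0.00903%) at a Benjamini-Hochberg adjusted p under 0.05. That row was lower in RV, and 0 rows (0.0%) were called higher in RV. At an unadjusted p under 0.05, limma gave 495 rows (4.47%), 231 (2.09%) higher and 264 (2.38%) lower in RV. Differences are RV minus LV on the scale log2(FPKM + 0.1), which understates the change of rows with low values. The median difference was 0.00, and the middle 90% of rows lay between -0.72 and 0.72. With replicate number as a block in the fit, limma called 2 other rows, both higher in RV, and not the first.

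Pairs of libraries were compared as well. Over the 1339 tested rows that averaged 1 FPKM or more at P7, the median absolute log2 difference between 2 LV libraries was 0.217 to 0.263. Between the 2 RV libraries it was 0.282. Between an LV and an RV library it was 0.239 to 0.313, a range that overlapped both. The 3 highest of these 6 values all involved RV replicate 1. Pearson's r across the 11079 rows was 0.905 to 0.912 within LV, 0.908 within RV and 0.898 to 0.913 between the ventricles. Rows are not independent replicates, so these r values only describe the libraries.

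**Figure D1:**
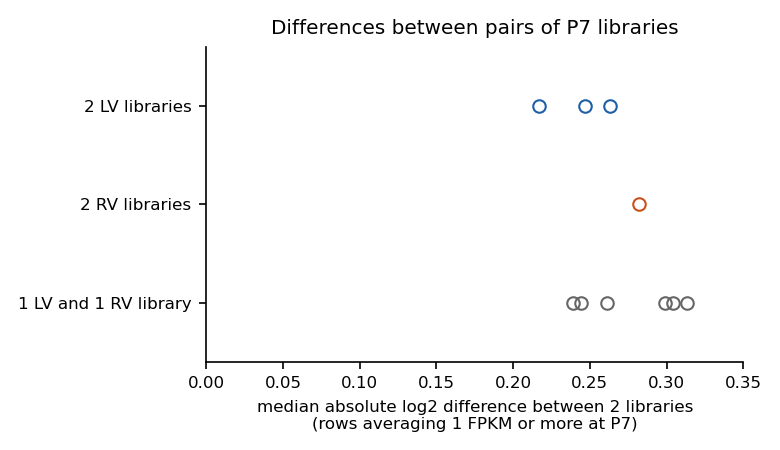
Each open circle is 1 pair of P7 libraries, and the x axis is the median absolute log2 difference over the 1339 rows averaging 1 FPKM or more. Pairs of an LV with an RV library, at 0.239 to 0.313, overlap the pairs within LV, at 0.217 to 0.263, and the RV pair, at 0.282.

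How narrowly the difference was bounded varied with the level of the row. The 95% interval of the difference, not adjusted over rows, lay wholly within a 2-fold change in either direction for 3606 rows (32.5%). This was so for 87.9% of the 141 rows at 10 FPKM or more and for 70.9% of the 1198 rows at 1 to 10 FPKM. Between 0.1 and 1 FPKM the share was 23.8% of 5165 rows, and below 0.1 FPKM it was 30.7% of 4575 rows. In the lowest group the pseudocount of 0.1 exceeds the value itself and holds differences small. Even so, for most rows below 1 FPKM the interval reached past a 2-fold difference. The estimate itself was over 2-fold for 382 rows, 0 of them at 10 FPKM or more.

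**Figure D2:**
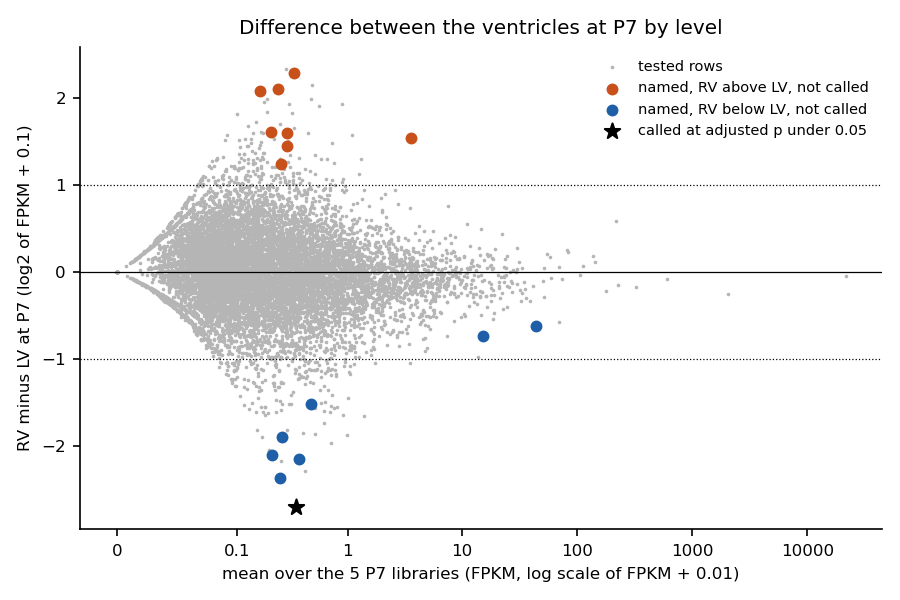
Each point is 1 of the 11079 tested rows, with its mean over the 5 P7 libraries on the x axis (log scale) and the log2 difference RV minus LV on the y axis. Dotted lines mark a 2-fold difference. Colours mark rows named in the text, the star is the called row at -2.70, and no row at 10 FPKM or more lies beyond a dotted line.

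The called row, TCONS_00022229, is 517 bases long and lies on chromosome 16, positions 24097633 to 24098149. It measured 0.544, 0.349 and 0.850 FPKM in the 3 LV libraries while both RV libraries held a value of 0, so the groups did not overlap. These LV values correspond to 5, 3 and 8 fragments. A count of 0 allows up to 3 fragments, or 0.321 and 0.311 FPKM in the 2 RV libraries, which is just under the lowest LV value. The log2 difference was -2.70 ± 0.39 (SE), with a limma adjusted p of 0.0155. Against a group at 0 that size depends on the pseudocount and is no measure of a fold. The row was also at 0 in all 6 libraries of P0, and at P3 it averaged 0.0170 FPKM in LV and 0.0746 in RV (n = 3 each). It passed the filter only through the LV libraries of P7. The groups at 0 in every library, RV at P7 and both ventricles at P0, added no spread to the fit. The SE thus rests partly on values at the floor. The call was lost when LV replicate 1 (limma adjusted p = 0.104), LV replicate 3 (0.166), RV replicate 1 (0.563) or RV replicate 2 (0.246) was left out. It was also lost when only the P7 libraries were fitted (limma adjusted p = 0.767), with a pseudocount of 0.01 (0.189) and with replicate number as a block (0.298).

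The rows next in order of unadjusted p were taken up to 8 in each direction, among rows at or above the median level of 0.142 FPKM whose RV and LV libraries did not overlap. Such non-overlap was common. It held for 2041 of the 11079 rows (18.4%), 987 with RV above (8.91%) and 1054 with RV below (9.51%). With only 2 libraries against 3, groups often separate where there is no difference, so non-overlap alone shows none. Apart from the row on chromosome 16, limma called none of the rows named here in the main fit, and their values are given as a description.

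Among rows with RV above LV, 1 had a level well over that of the rest. NONMMUT054852, a row of 1744 bases on chromosome 5, positions 136520614 to 136522357, measured 1.26, 2.16 and 2.69 FPKM in LV and 5.58 and 6.16 in RV. Both RV libraries stood more than 2-fold above the highest LV library. The log2 difference was 1.54 ± 0.34 (SE; 95% interval 0.82 to 2.27), with a limma adjusted p of 0.456. With replicate number as a block, limma called it, at an adjusted p of 0.0378. The RV mean was above the LV mean at the earlier ages too, at 11.0 against 7.47 FPKM at P0 and 11.3 against 2.77 at P3 (n = 3 each). The groups overlapped at P0 and did not overlap at P3. Against the mean of P0 and P3, the difference at P7 was larger by 0.27 only, with a limma adjusted p of 0.999.

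The other 7 rows on that side were low in LV. On chromosome 9, positions 123600078 to 123600865, LV measured 0, 0.0382 and 0.105 FPKM and RV 0.351 and 0.714. On chromosome X, positions 71519707 to 71526965, LV measured 0.0465, 0.0995 and 0.0454 FPKM and RV 0.457 and 1.02. On chromosome 17, positions 36057296 to 36057887, 2 LV libraries were at 0 and the third at 0.0507 FPKM, and RV measured 0.326 and 0.451. In all of these LV stayed near or below 0.1 FPKM while both RV libraries were above 0.3. The log2 differences were 2.10, 2.28 and 2.08, with limma adjusted p values of 0.456, 0.826 and 0.650.

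At P0 and P3 the order of the means was mixed. At P3 they were 0.608 FPKM in LV and 0.516 in RV on chromosome 9, 0.431 and 0.368 on chromosome X, and 0.330 and 0.140 on chromosome 17. At P0 they were 0.364 and 0.156 on chromosome 9, 0.303 and 0.334 on chromosome X, and 0.347 and 0.238 on chromosome 17. RV thus had the lower mean at both earlier ages on chromosomes 9 and 17, and at P3 only on chromosome X. The remaining 4 rows had log2 differences of 1.24 to 1.61. Of these, 2 had a higher RV mean at each age. The row on chromosome 2, positions 132691384 to 132694319, averaged 0.592 FPKM in RV and 0.440 in LV at P0, and 0.557 and 0.283 at P3. The row on chromosome 12, positions 112224194 to 112225328, was low at the earlier ages, at 0.0426 FPKM in RV and 0.0192 in LV at P0 and 0.0163 and 0 at P3.

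Rows with RV below LV included a pair of abundant transcripts. On chromosome 6, positions 127075184 to 127076427, LV measured 51.4, 53.2 and 47.7 FPKM and RV 32.0 and 33.8. On chromosome 12, positions 118997624 to 118998207, LV measured 16.7, 18.2 and 18.8 FPKM and RV 9.43 and 12.2. In both the lowest LV library lay clearly above the highest RV library. The log2 differences were -0.62 ± 0.14 and -0.73 ± 0.15 (SE), with 95% intervals of -0.92 to -0.32 and -1.04 to -0.41 and limma adjusted p values of 0.456 and 0.436.

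Their earlier levels differed less between the ventricles. At P0 the chromosome 6 row averaged 56.8 FPKM in LV and 55.9 in RV, and at P3 48.9 and 38.7, with 1 LV library at 38.4 inside the RV range of 37.0 to 40.4. The chromosome 12 row averaged 16.2 and 17.4 FPKM at P0 and 14.5 and 14.8 at P3. The test of the P7 difference against the mean of P0 and P3 called neither (limma adjusted p of 0.999 and 0.476).

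The remaining 5 rows on that side were below 1 FPKM in every P7 library. On chromosome 10, positions 128359572 to 128360580, LV measured 0.390, 0.334 and 0.534 FPKM and both RV libraries were at 0. On chromosome 15, positions 84747841 to 84748589, LV measured 0.525, 0.683 and 0.550 FPKM and RV 0.0739 and 0.0358. On chromosome 4, positions 116547743 to 116549236, LV measured 0.508, 0.403 and 0.331 FPKM and RV 0.0370 and 0.0359. All were present in RV at P3, at means of 0.317, 0.315 and 0.626 FPKM. Limma adjusted p values for the P7 difference were 0.436, 0.469 and 0.456. A row on chromosome 17, positions 41067016 to 41071996, and another on chromosome 16, positions 36862536 to 36862827, had log2 differences of -1.52 and -2.10.

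**Figure D3:**
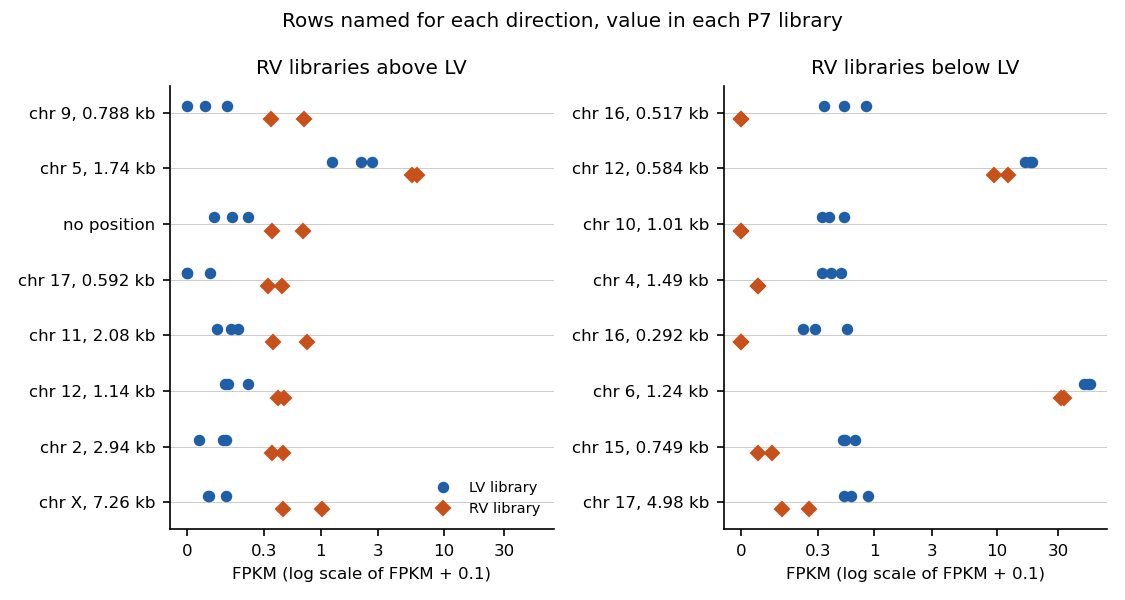
Each line is 1 row, given by chromosome and length, with its FPKM in the 3 LV libraries (circles) and the 2 RV libraries (diamonds) on a log scale of FPKM + 0.1. The 8 rows on the left have both RV libraries above LV and the 8 on the right have both below. Only the row at the top right was called, and 13 of the 16 lie at or below 1.02 FPKM in every library.

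Whether the signed difference between the ventricles at P7 departed from the earlier ages was tested by subtracting the mean of the differences at P0 and P3. Such a departure can be a larger difference or a turn in direction. Limma called 1 row (0.00903%), and 420 (3.79%) had an unadjusted p under 0.05. The called row was again that on chromosome 16, at -2.94 with an adjusted p of 0.0473. It was called in 5 of 16 alternatives. The strongest in the other direction was NONMMUT011874, which has no position, at 1.80 with a limma adjusted p of 0.0773. Its mean was lower at each later age in both ventricles, and the order of the ventricles turned at P7. It averaged 47.7 FPKM in LV and 27.5 in RV at P0, and 15.5 and 8.45 at P3. At P7 it measured 2.19, 1.49 and 1.91 FPKM in LV and 4.61 and 2.84 in RV, and the groups overlapped at no age. Without RV replicate 2 of P3, limma called it, at an adjusted p of 0.00825.

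**Figure D4:**
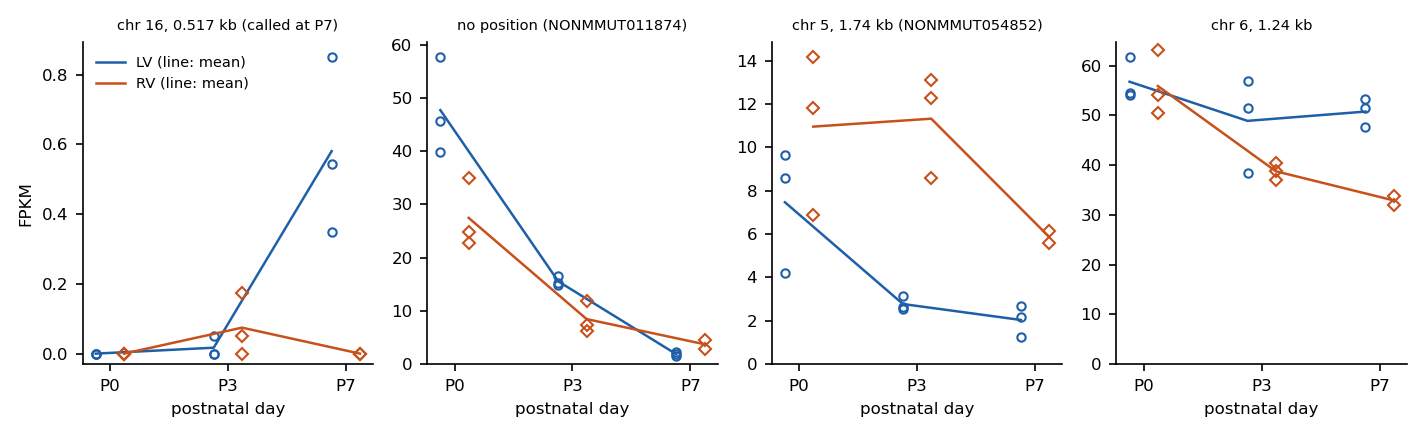
FPKM at P0, P3 and P7 in LV (circles) and RV (diamonds) for 4 rows, with lines through the means of 3 libraries, or 2 for RV at P7. The chromosome 16 row is above 0 in all LV libraries only at P7, NONMMUT011874 changes its order between P3 and P7, NONMMUT054852 has the higher mean in RV at each age, and the chromosome 6 row separates at P7.

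A few rows separated the ventricles in every library at all 3 ages. RV was above LV throughout in 7 rows (0.0632% of those tested) and below in 7 (0.0632%). These and the rows that turned at P7 were picked out after their values were seen. The most abundant of the rows below was on chromosome 6, positions 116574940 to 116576466. It measured 6.33, 5.75 and 4.53 FPKM in LV and 4.02 and 3.65 in RV at P7. At P0 it measured 7.04, 6.53 and 7.14 FPKM in LV and 5.72, 5.18 and 5.36 in RV. The groups barely separated at P3, at 6.0, 5.66 and 6.07 FPKM in LV and 5.64, 5.13 and 5.46 in RV. A row of 30088 bases on chromosome 8, positions 94849932 to 94880019, measured 5.49, 2.99 and 3.67 FPKM in LV and 2.75 and 2.57 in RV at P7. The most abundant row above has no position and measured 1.57, 1.29 and 1.49 FPKM in LV and 3.26 and 2.23 in RV. At P7 alone limma called none of the 14, and their log2 differences there ran from -0.98 to 1.16. Rows that turned at P7 numbered 2 in each direction (0.0181% each), NONMMUT011874 among them. With 11079 rows tested, a few can show each of these patterns where there is no difference, so the counts alone show none.

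Rows listed at 0 in 1 ventricle and above 0 in every library of the other were few and low. A listed 0 allows a few fragments, so it does not show absence. Of the 11079 tested rows, 515 were listed at 0 in all 3 LV libraries, and 87 of these were above 0 in both RV libraries, with a highest mean of 0.250 FPKM. Listed at 0 in both RV libraries were 681, and 56 of these were above 0 in all LV libraries. The highest mean there, 0.581 FPKM, was that of the called row. More rows are at 0 in 2 libraries than in 3 by the design alone, so these 2 counts are not compared. The 87 are among the 987 tested rows (8.91%) with RV above LV, and the 56 among the 1054 (9.51%) with RV below.

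Among the 1339 tested rows at 1 FPKM or more the direction was uneven. Libraries did not overlap in 22.1% of rows at 1 to 10 FPKM and in 31.2% at 10 FPKM or more, beside 18.4% of all tested rows. Non-overlapping libraries put RV below LV in 223 of the 1339 and above in 86, so 72.2% of the non-overlapping rows were below. The share was 81.7% when each library was centred on its median and 61.3% when each was scaled to the sum of its nuclear rows. Nuclear rows here are all rows not placed on the mitochondrial chromosome, those without a position included. The size was small, with a median log2 difference of -0.08 over all 1339 rows. It was -0.17 for RV replicate 1 against the LV mean and 0.03 for RV replicate 2 as deposited, -0.06 and -0.13 with median centring, and -0.02 and -0.03 with scaling to the nuclear sum. The sign for RV replicate 2 thus changed with the scaling. Over all tested rows, the share of non-overlapping rows with RV below was 51.6% as deposited. It was 49.8% with median centring and 42.2% with scaling to the nuclear sum. As deposited, the median difference from the LV mean over all tested rows was -0.11 for RV replicate 1 and 0.11 for RV replicate 2.

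The most abundant rows not placed on the mitochondrial chromosome differed little between the ventricles, with 1 exception. Some of them, the exception included, have no position, and whether those are nuclear is not known. A row of 217 bases on chromosome X, positions 148192453 to 148192669, measured 348, 382 and 285 FPKM in LV and 280 and 318 in RV. A row on chromosome 16, positions 90341906 to 90350117, measured 241, 223 and 242 FPKM in LV and 217 and 207 in RV. Its log2 difference of -0.15 had an interval of -0.36 to 0.06. Of the 8 most abundant, 7 had differences between -0.22 and 0.19. The exception has no position and measured 196, 150 and 197 FPKM in LV and 316 and 231 in RV. Its libraries did not overlap and its difference was 0.59 (95% interval 0.22 to 0.96), with a limma adjusted p of 1. With replicate number as a block, limma called it, at an adjusted p of 0.0178.

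The rows with the highest values lay on the mitochondrial chromosome, which encodes the RNAs of the mitochondrial ribosome. The row with the bounds of the 12S gene mt-Rnr1, positions 70 to 1024, measured 2180, 2840 and 1600 FPKM in LV and 1730 and 1880 in RV. The row at positions 1094 to 3703, which took no gene name from the list, measured 21500, 22900 and 20700 FPKM in LV and 22300 and 19900 in RV. Both groups overlapped, and the log2 differences were -0.25 (-0.97 to 0.47) and -0.04 (-0.30 to 0.22).

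A list of 30 known noncoding loci was looked up. The tables pair no row with a gene name, so a row took a name only when it lay on the same chromosome, had the length of that gene or of one of its transcripts within 1 base in GENCODE M21 or RefSeq on GRCm38, and lay within 0.4 Mb of where the gene is known to be on mm9. The known positions are approximate, from general knowledge, and they and the 0.4 Mb were set after the tables had been seen, so these names are likely matches and not identities. Rows at 1 position can share reads, and the row with the highest P7 mean stands for each locus. In this way 17 loci had a row, 13 had one that was tested, and limma called 0 of the 13. In the main fit 0 had an unadjusted limma p under 0.05. Among the alternatives 1 did, Rian, when rows at a position were summed, and 1, Peg13, with a pseudocount of 1. With replicate number as a block 2 did, H19 and mt-Rnr1. The median log2 difference of the 13 was -0.01, beside 0.00 for all tested rows. The interval lay within 2-fold for 6 of them, mt-Rnr1 included.

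Of the imprinted loci, which are expressed from 1 parental copy, H19 is transcribed next to Igf2 and is a fetal RNA that declines after birth. Its row on chromosome 7, positions 149761434 to 149764051, measured 10.8, 10.4 and 10.9 FPKM in LV and 12.1 and 14.2 in RV. Both RV libraries lay above LV by a small margin, with a difference of 0.29 and an interval of -0.19 to 0.78. At P0 the means were 71.8 FPKM in LV and 66.0 in RV. Peg13, expressed from the paternal copy, measured 1.06, 0.771 and 0.913 FPKM in LV and 0.527 and 0.646 in RV. Here both RV libraries lay below, with a difference of -0.56 and an interval of -1.22 to 0.10.

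Meg3, Rian and Mirg stand side by side on chromosome 12 and are expressed from the maternal copy. The Meg3 row measured 2.85, 3.27 and 3.68 FPKM in LV, inside the RV values of 1.77 and 3.84. Rian and Mirg averaged 0.0875 and 0.136 FPKM, with differences of 0.11 and -0.10. All 3 of these rows overlapped between the ventricles. Summing the rows at a position changed the values for Rian and Mirg. The 9 rows at the Rian position summed to 0.262, 0.219 and 0.226 FPKM in LV and 0.497 and 0.481 in RV, which did not overlap. The difference was then 0.81, with an interval of 0.12 to 1.51 and a limma adjusted p of 1. For the 3 rows at the Mirg position it turned to 0.46, with an interval of -0.63 to 1.55.

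At the heart and muscle loci the libraries overlapped. Foxo6os, antisense to the gene of the transcription factor Foxo6, measured 2.76, 1.69 and 2.21 FPKM in LV and 2.42 and 1.93 in RV. Its RV values lay inside the LV range, with a difference of -0.01 and an interval of -0.71 to 0.68. Hand2os1, transcribed away from the heart transcription factor gene Hand2, measured 0.246, 0.255 and 0.301 FPKM in LV and 0.212 and 0.454 in RV. Carmn, a lncRNA of smooth and heart muscle, averaged 0.157 FPKM and the host of a muscle microRNA, Mir1a-1hg, 0.133 FPKM, with differences of -0.22 and 0.14. Of the heart muscle markers planned, Mhrt had no matching row, and Fendrr, a mesenchymal lncRNA, had none either. The snoRNA hosts Gas5 and Snhg12 and the nuclear RNA Tug1 had differences of -0.01, 0.75 and 0.44, all with overlapping libraries and all under 1 FPKM on average in the row shown. With rows at a position summed, the differences were -0.36, 0.29 and 0.48.

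**Figure D5:**
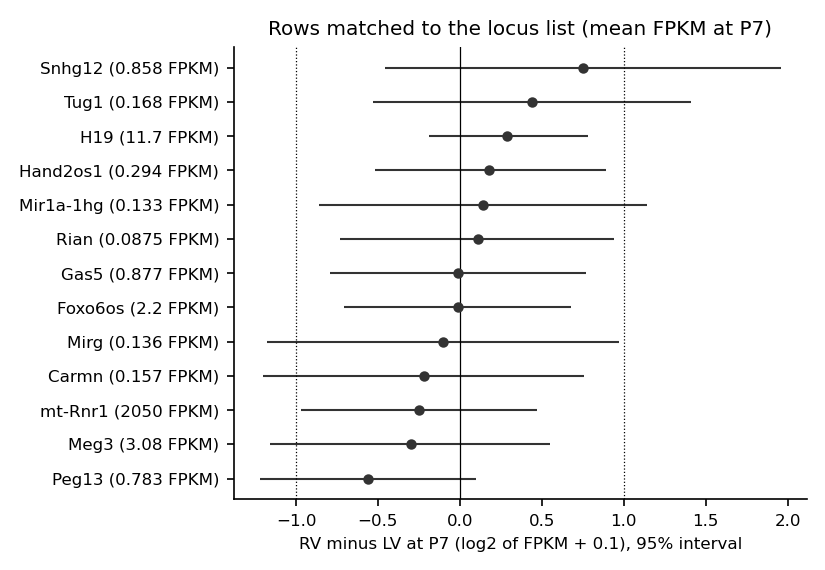
Log2 difference RV minus LV at P7 with its 95% interval for the 13 matched rows of the locus list that were tested, with the mean FPKM over the 5 P7 libraries in brackets. Dotted lines mark a 2-fold difference, and every interval includes 0.

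The sex in the labels was looked at through Xist of the same list and through chromosome Y rows. Xist, the RNA that silences an X chromosome in female cells, had matching rows listed at 0 in all 5 libraries. The row standing for Malat1, which the list groups with abundant nuclear RNAs, also reached no more than 0.0199 FPKM at P7. A matched row at 0 thus does not show that a gene is silent. The most abundant chromosome Y row, positions 384836 to 385574, measured 1.59, 1.34 and 1.19 FPKM in LV and 1.23 and 1.63 in RV.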

How the data were processed

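The authors deposited 1 table per library with an ID, a position and a value. The tables name no unit. The deposited values were taken as FPKM because value times length falls on whole multiples of 1 read: 82.2% to 83.7% of low values in the P7 libraries did so within 0.02 of a read, against a median of 1.23% to 1.39% at other depths searched. TPM would also step, so FPKM is an inference. The implied 33.2 to 37.4 M reads, at 2 per fragment, are the depth given. The submitters' processing notes name STAR 2.4.0j and mm10, but on 10 chromosomes rows run past the last GENCODE M21 gene, by up to 7.08 Mb, so positions are taken to be mm9 and none was converted. Neither counting tool nor annotation is stated in the labels. Of the 23940 rows, 702 have no position and 5055 share one.

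The fit used limma 3.58.1 (R 4.3.3) with 6 group means across the 17 libraries, values as log2(FPKM + 0.1), robust moderation and a trend in the variance. Tests were two-sided, with Benjamini-Hochberg adjustment over all tested rows. Rows needed 0.1 FPKM in 2 libraries. The fit was tested on simulated data. Named rows were up to 10 called and up to 8 by smallest p per direction, with level at or above the median and no overlap, the 8 most abundant nuclear rows, the top row at each mitochondrial rRNA gene, up to 4 per direction at 0 in the other ventricle (given as counts), the locus list, and the smallest p per direction of the test against P0 and P3. The members and lists were chosen with earlier results of these data known. P-values measure the spread between the deposited libraries. Alternatives changed the pseudocount, filter, scaling, moderation, pairing, row merging and libraries. Rows around unnamed positions were not annotated, because no mm9 annotation was used here.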

Additional observations from a re-analysis of the deposited data

Results flagged for a closer look

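The row TCONS_00022229 changed its log2 difference RV minus LV by -2.94 at P7, against the mean of P0 and P3. Limma's test of that change gave an adjusted p of 0.0473. The row was at 0.544, 0.349 and 0.850 FPKM in LV and at 0 in RV at P7, and at 0 in all libraries at P0. It passed the filter only through the LV libraries of P7, and the groups at 0 added no spread to the fit. The values rest on 3 to 8 fragments per LV library, and the range of adjusted p over 16 alternatives was 0.00825 to 0.754.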

How the results depend on the processing

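The count of rows called at P7, 1 as reported, was 2 with a pseudocount of 1, 15 without a filter (13 higher and 2 lower in RV), 0 with only the P7 libraries fitted, and 0 to 1 when a P7 library was left out. With a pseudocount of 0.01 it was 1, but another row, that on chromosome 10 (limma adjusted p = 0.0109). The row on chromosome 16 was called in 10 of 17 alternatives. The count against P0 and P3, also 1, was 0 with a pseudocount of 0.01 or 1, median centring, no variance trend, no robust moderation or the filter on the P7 libraries, 6 without a filter, 2 without RV replicate 2 of P3, and 0 to 1 when a P7 library was left out. The count of intervals within 2-fold, 3606 as reported, was 1277 with a pseudocount of 0.01, 10975 with a pseudocount of 1, 15725 without a filter, 2325 with the filter on the P7 libraries and 1103 to 2371 when a P7 library was left out, which leaves fewer samples. It was 3747 without RV replicate 2 of P3. The median difference was -0.11 without RV replicate 2 and 0.11 without RV replicate 1. A lone RV library is there assumed to vary like the other groups. Scaling to the nuclear sum was added after seeing the data and left both counts of calls and the interval count within 1.5 times. No locus of the list was called under any alternative run.

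Same-numbered LV and RV libraries correlated in their deviations from the group means at 0.045 to 0.172. At P7 the values were 0.083 and 0.069. Other pairs of an LV and an RV library of the same age lay at -0.13 to 0.03. The labels state no pairing, and the main fit used none. Whether same-numbered libraries share animals or a batch was not tested. With a block for each replicate number within an age, limma called 2 rows at P7, both higher in RV, and 0 against P0 and P3. The 2 were NONMMUT054852 (adjusted p = 0.0378) and the abundant row without a position (adjusted p = 0.0178). The row on chromosome 16 was not called in that fit (limma adjusted p = 0.298). Each LV library that has a same-numbered partner correlated best with it. Deviations from a group mean cancel within the group, so these correlations are not independent of each other. With 2 RV libraries at P7, the values for 1 LV library are equal in size and opposite in sign, such as 0.083 and -0.083 for LV replicate 1. The pattern is at most a weak hint from the data, and not from the design.

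Depth limits the low rows. At 16.6 to 18.7 M fragments, rows under 1 FPKM rest on few fragments, and a difference that misses the threshold there does not show that the ventricles are alike.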
